A study of Homo sapiens with 6 samples.

Results

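Of the 33 genes of the human tetraspanin family, 9 are described here: CD151, CD9, CD63, CD81, CD82, TSPAN3, TSPAN4, TSPAN14 and TSPAN15. They were chosen by name, with earlier results of these data known. All 9 were among the 15024 genes of the deposited table, as were 16 of the other 24 family genes. Tetraspanins are small membrane proteins that cross the membrane several times and gather integrins, proteases and immunoglobulin proteins into membrane microdomains. CD151 is the member that binds most directly to the laminin-binding integrins, among them alpha 6 beta 4, and CD9 and CD81 share immunoglobulin partners. CD82 is known as a suppressor of metastasis, CD63 cycles through late endosomes and marks secreted vesicles, TSPAN4 is a component of migrasomes, and TSPAN14 and TSPAN15 belong to the group that escorts the protease ADAM10 to the cell surface.

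The RNA came from MDA-MB-231, a human cell line of triple-negative breast cancer with a mesenchymal phenotype. Every sample carried a non-targeting guide (sgNT) and was exposed for 14 days to 10 µM forskolin, an activator of adenylyl cyclase, so no sample without forskolin enters the comparison. The cells were then sorted by flow cytometry on CD44 and on CD104, the protein of ITGB4. The cells mutated in MLL3 were not analysed here. There were 3 libraries of CD44-positive cells high in CD104 (CD104high, E/M in the labels), which the study calls hybrid EMT, and 3 of CD44-positive cells with little or no CD104 (CD104low, M in the labels), which it calls mesenchymal. The replicates are labelled biological, with no statement of separate cultures or sorts, so that the tests measure the spread between these libraries, which all come from 1 line.

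Libraries held between 52088604 and 56958065 gene reads, and values below are read counts divided by a size factor per library (normalised read counts). ITGB4, the gene of the sort marker, followed the labels, at 17659 ± 1766 (SD, n = 3) in CD104high and 3079 ± 743 in CD104low. Of 6 genes fixed as markers of the line, all were present at 13363 or more in every library. KRT19 among them was 1.32-fold higher in CD104high (limma adjusted p = 0.00194), and the other 5 did not pass. Of 3 luminal receptor markers, 2 (ESR1 and PGR) were not in the table. ERBB2 had 9262, 8646 and 8272 in CD104high and 7789, 7480 and 7443 in CD104low, without overlap. Its limma adjusted p was 0.0501, and 0.0264 with the replicate number as a block. Of 8 leukocyte markers, 6 were not in the table, including PTPRC, and the summed level of the other 2, CD14 and CD37, was 604 to 626 in CD104high and 268 to 306 in CD104low. The summed level of the 4 fibroblast markers was 1553 to 1756 in CD104high and 1279 to 1425 in CD104low. Of these, LUM had 162, 201 and 643 against 40.7, 21.7 and 222, higher in 3 of 3 numbered pairs with overlapping groups (limma adjusted p = 0.0591, and 0.000413 with the replicate number as a block). COL1A1 overlapped (log2 0.09), and PDGFRA and DCN lay at 9.9 or less in every library. Of 3 endothelial markers, 2 were not in the table and PECAM1 lay at 9.8 or less. Whether a marker missing from the table had reads in some libraries is not known. The part of these markers in the results below was not tested. In sorted bulk RNA, fewer cells with a transcript and less of it per cell cannot be told apart.

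CD82, CD9 and TSPAN15 rose in the CD104high cells, by 1.95-fold, 1.54-fold and 1.66-fold. CD151 and CD81 overlapped between the groups. CD63, TSPAN3 and TSPAN4 were slightly above and TSPAN14 slightly below the CD104low libraries without overlap, and none of these 4 passed the test. A gene was called at an adjusted p under 0.05 with limma over all 14343 tested genes, of which 12.1% were higher and 11.3% lower. These shares are the background for the counts of called genes in each list below. Of the 9 genes, 3 were higher, 0 lower and 6 did not pass, with a median log2 fold change of 0.20 against 0.01 over all tested genes. The groups did not overlap for 7 of the 9, 6 higher and 1 lower, where 19.9% and 21.3% of all tested genes lay apart in those directions. Without CD104low replicate 1, 5 were called higher and 1 lower, against 10.4% and 8.92% of all tested genes. The same counts, 5 and 1, came with the replicate number as a block, where 17.4% of all tested genes were higher and 15.4% lower.

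The sequences just before the transcription starts are shown for the 3 of the 9 genes that were called higher. Whether these 3 are regulated together was not tested. They come from RefSeq on GRCh38.p14, plus strand, and hold the bases before a RefSeq start that are in no annotated exon of the gene. For CD9, with 4 starts in RefSeq, the start with the most GENCODE transcript starts within 10 bases was taken. The stretches of CD82 and CD9 lie inside the annotated gene, downstream of the start of longer transcripts, and that of TSPAN15 lies before the gene. The capitals mark matches to the GC box GGGCGG on either strand, including matches that abut each other. The stretches lie at chr11:44565413-44565590 for CD82, chr12:6200150-6200315 for CD9 and chr10:69451215-69451464 for TSPAN15.
CD82: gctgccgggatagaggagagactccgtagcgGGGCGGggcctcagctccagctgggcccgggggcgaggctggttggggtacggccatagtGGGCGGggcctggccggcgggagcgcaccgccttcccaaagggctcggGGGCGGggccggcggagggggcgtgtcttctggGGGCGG
CD9: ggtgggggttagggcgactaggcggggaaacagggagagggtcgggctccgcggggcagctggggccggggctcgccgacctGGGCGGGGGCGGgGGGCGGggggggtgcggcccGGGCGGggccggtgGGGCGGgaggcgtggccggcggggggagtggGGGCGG
TSPAN15: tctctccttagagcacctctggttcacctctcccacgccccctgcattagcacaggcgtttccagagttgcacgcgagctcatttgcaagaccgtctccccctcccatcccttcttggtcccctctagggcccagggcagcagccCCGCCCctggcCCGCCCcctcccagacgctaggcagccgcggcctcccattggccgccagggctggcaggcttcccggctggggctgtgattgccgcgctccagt
They hold 4 matches in CD82, 6 in CD9 and 2 in TSPAN15. Among all 35116 RefSeq windows cut to the same lengths, 30.9%, 28.8% and 42.6% hold at least 1. These windows keep their first bases and were not trimmed at exons. The letters TGACG, the core of the cAMP response element, do not occur on either strand in these 3 stretches, and occur in 13.4%, 12.3% and 21.2% of windows of those lengths. No measurement of binding or chromatin at these sites was analysed here. Windows were found for 6 of the 9 genes, and not for CD151, CD81 and TSPAN3. Matches were counted only in the 3 genes that rose, so they give no comparison with members that did not pass.

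**Figure D1:**
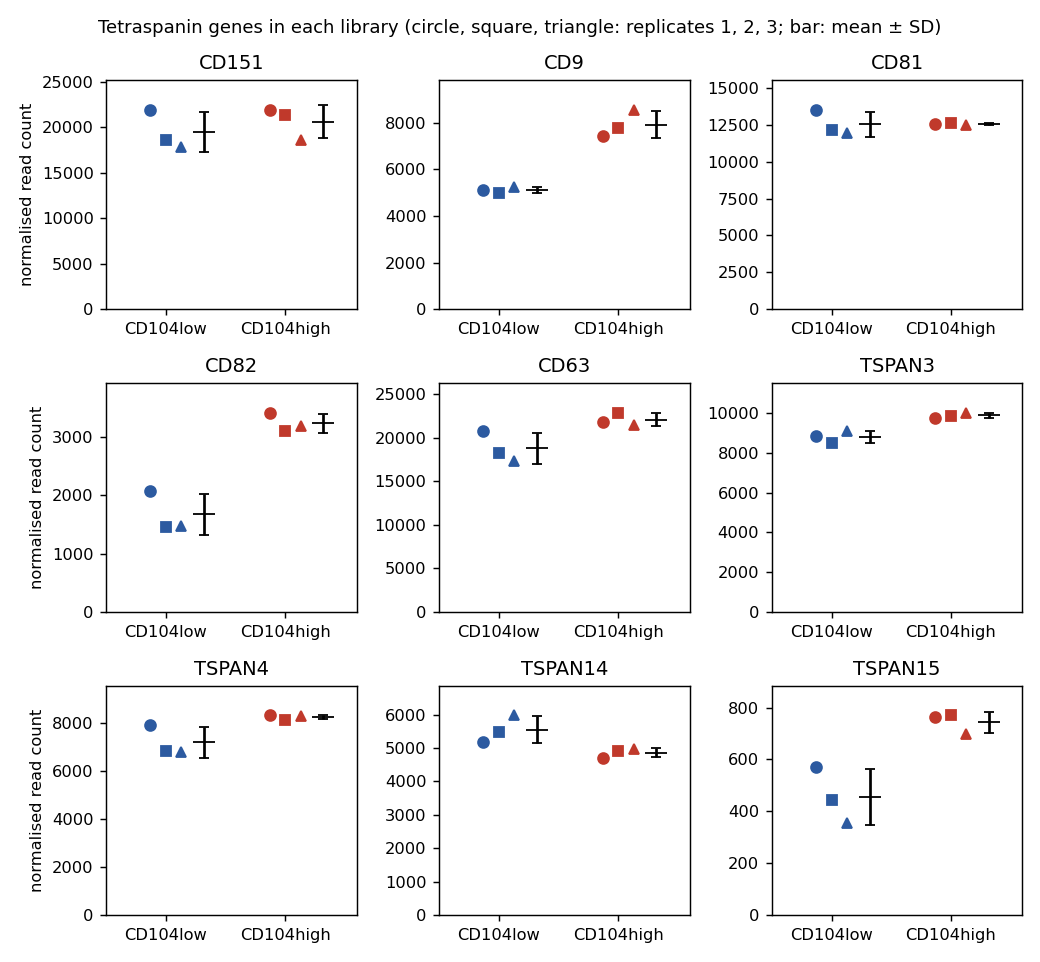
Normalised read count (y axis, from 0) of each of the 9 genes in the 3 CD104low (blue) and 3 CD104high (red) libraries, with circle, square and triangle for replicates 1, 2 and 3 and a black bar for the mean ± SD. CD9, CD82 and TSPAN15 part clearly, whereas CD151 and CD81 overlap.

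CD151 stayed near the same level. It had 21887, 21373 and 18587 normalised reads in CD104high replicates 1 to 3 and 21920, 18629 and 17870 in CD104low. The groups overlapped, and CD104low replicate 1 was the highest of the 6 libraries. The difference did not pass the test (log2 0.08 ± 0.09 SE, limma, adjusted p = 0.555). The 95% confidence interval ran from −0.12 to 0.29, or 0.92-fold to 1.23-fold. The gene (ENSG00000177697.19) lies on chromosome 11 from 832843 to 839831 (GRCh38, plus strand). Its exons share 257 bases with POLR2L, an RNA polymerase subunit gene on the other strand, which had 10201 ± 469 normalised reads in CD104high and 10784 ± 753 in CD104low, a change that did not pass (log2 −0.08, adjusted p = 0.468). Whether reads were counted by strand is not given in the sources used here, and reads of the shared bases cannot be told apart. The same limit holds for CD82, TSPAN3, CD63, TSPAN14 and CD81. Their exons share 280, 264, 237, 235 and 30 bases with genes on the other strand.

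Of the 5 genes of laminin-binding integrin subunits, 3 rose and 2 did not pass, with a median log2 fold change of 0.52, and ITGB4 among the 3 is the sort marker itself. ITGA3, the alpha 3 subunit, had 117127, 123438 and 131749 in CD104high against 88856, 86209 and 84180 in CD104low, a rise of 1.43-fold (adjusted p = 0.00194). ITGA6, the alpha 6 subunit that pairs with beta 4, rose by 1.87-fold (adjusted p = 0.000306). The shared beta 1 subunit gene ITGB1 stood at 78655 ± 6897 against 71806 ± 3146, with overlapping groups (log2 0.13, adjusted p = 0.302). ITGA7 lay at 19.9 to 49.4 in all 6 libraries and did not pass (adjusted p = 0.589).

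The balance of CD151 to these subunits was compared within each library as a log2 ratio of the 2 normalised read counts, of which the difference between groups is free of gene length. For ITGA6 the ratio was 0.63, 0.37 and 0.24 in CD104high and 1.57, 1.04 and 1.10 in CD104low, a difference of −0.82. For ITGA3 it was −2.42, −2.53 and −2.83 against −2.02, −2.21 and −2.24, a difference of −0.44. Both ratios were lower in each of the CD104high libraries than in any CD104low library. The exact two-sided permutation p was 0.1 for both, the smallest that 3 against 3 libraries allow, and 0.12 adjusted over the 6 ratios computed. Each of the 6 differences follows from the fold changes of its 2 genes, so it is no separate result. The ratio to ITGB1 overlapped between the groups (difference −0.04, exact permutation p = 0.5).

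**Figure D2:**
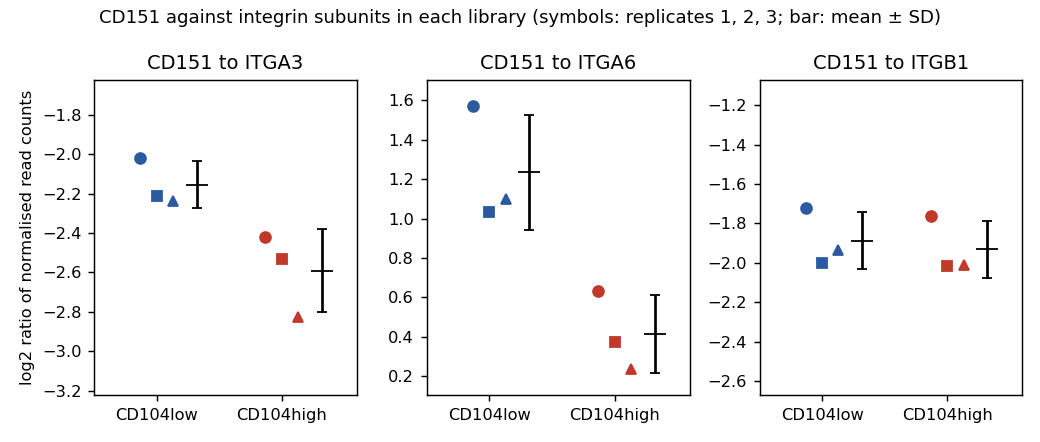
Log2 ratio of the CD151 normalised read count to that of ITGA3, ITGA6 and ITGB1 (y axes of equal span that do not start at 0) in each CD104low (blue) and CD104high (red) library, with symbols for replicates and black bars for mean ± SD. The ratios to ITGA3 and ITGA6 lie lower in all 3 CD104high libraries, and the ratio to ITGB1 overlaps.

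CD9 had 7420, 7771 and 8570 normalised reads in CD104high and 5139, 4999 and 5261 in CD104low. The lowest CD104high library stood above the highest CD104low library, and the CD104low libraries lay close together. The log2 fold change was 0.62 (SE 0.07, 95% interval 0.46 to 0.78, adjusted p = 0.000497), higher in 3 of 3 numbered pairs. CD9 (ENSG00000010278.14) spans chromosome 12, 6199715 to 6238271, on the plus strand. CD81, its close relative in binding immunoglobulin partners, had 12559, 12623 and 12512 in CD104high and 13544, 12152 and 11977 in CD104low. The CD104high libraries of CD81 differed by little, and all 3 lay inside the CD104low range. Its log2 fold change was 0.00 (SE 0.07, 95% interval −0.15 to 0.15, adjusted p = 0.979), or 0.90-fold to 1.11-fold. Within libraries, the log2 ratio of CD9 to CD81 was −0.76, −0.70 and −0.55 in CD104high and −1.40, −1.28 and −1.19 in CD104low (difference 0.62, exact permutation p = 0.1, the smallest possible).

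The EWI proteins are immunoglobulin partners of CD9 and CD81. Of the 3 tested genes, 1 was higher and 0 lower, against 12.1% and 11.3% of all tested genes. IGSF8, which encodes EWI-2, had 2503, 2533 and 2803 in CD104high and 2128, 2050 and 2107 in CD104low, a rise of 0.32 on the log2 scale (adjusted p = 0.0143). Its call ended without CD104high replicate 3 (adjusted p = 0.0598) and without CD104low replicate 2 (0.0503). PTGFRN, which encodes the other main EWI partner, lay at 1.9 to 13.8 in 4 libraries and stood at 44.7 and 39.4 in both libraries numbered 2. IGSF3 had 35.0 to 63.5 in CD104high and 13.8 to 40.7 in CD104low and did not pass (adjusted p = 0.104). IFITM1, an interferon-induced protein first found with CD81 on lymphocytes, rose by 1.56-fold, at 602 ± 54.2 against 386 ± 45.2 (adjusted p = 0.00699).

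CD82 showed the largest change of the 9. It had 3418, 3101 and 3186 normalised reads in CD104high and 2082, 1465 and 1482 in CD104low. Among the CD104low libraries replicate 1 was the highest, yet it was below every CD104high library. The log2 fold change was 0.97 (SE 0.13, 95% interval 1.61-fold to 2.38-fold, adjusted p = 0.000991), higher in 3 of 3 pairs. Without CD104low replicate 1 it was 1.13. Relative to CD151 in the same library, the log2 ratio of CD82 was −2.68, −2.79 and −2.54 in CD104high and −3.40, −3.67 and −3.59 in CD104low, without overlap. CD82 (ENSG00000085117.12) spans chromosome 11, 44564427 to 44620363, on the plus strand.

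Of 11 tested membrane partners, 2 were higher, IFITM1 and the kinase gene PRKCA, 0 were lower and 9 did not pass. Over all tested genes, 12.1% were higher and 11.3% lower. PRKCA was 1.23-fold higher (adjusted p = 0.0262), and the call ended without any 1 of CD104high replicates 1 and 3 and CD104low replicates 1 and 2 (adjusted p = 0.0615 to 0.103). The growth factor receptor genes EGFR and MET, whose signalling CD82 is known to restrain, had log2 fold changes of −0.02 (SE 0.19) and 0.02 (SE 0.13), and in each group replicate 3 was the highest library for both genes. CD44, on which all cells were gated, had −0.16 (adjusted p = 0.113). EPCAM had 0.09, CLDN1 0.42, SLC3A2 0.05 and PI4K2A 0.02, with adjusted p of 0.0957 for CLDN1 and 0.73 or more for the other 3. CR2 lay at 24.3 or less in every library (adjusted p = 0.185). The complement regulator gene CD46 had a log2 fold change of 0.26 (adjusted p = 0.0577), and 0.00863 with the replicate number as a block.

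CD63 had 21857, 22893 and 21491 normalised reads in CD104high and 20758, 18252 and 17331 in CD104low. The groups did not overlap, but CD104low replicate 1 came within a narrow gap of the CD104high libraries. The log2 fold change was 0.24 (SE 0.08, 95% interval 0.06 to 0.41) and missed the threshold at an adjusted p of 0.0525. It passed without CD104low replicate 1 (log2 fold change 0.31, adjusted p = 0.0107), with the replicate number as a block (0.0262) and with DESeq2 on recovered reads (0.0271). In the authors' deposited table its adjusted p was 0.0148. CD63 (ENSG00000135404.11) spans chromosome 12, 55725323 to 55729707, on the minus strand.

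TIMP1, the secreted inhibitor that binds CD63, was 1.22-fold higher, at 8478 ± 446 against 6980 ± 431 (adjusted p = 0.0202). That call ended without CD104high replicate 1 or 2 or without CD104low replicate 2 (adjusted p = 0.0788 to 0.0796). The 10 genes of late endosome and lysosome membrane proteins, the compartment of CD63, had a median log2 fold change of 0.14. Of the 10, 1 was higher and 0 lower, against 12.1% and 11.3% of all tested genes. The 1 was LAMP2, at 1.21-fold (adjusted p = 0.0247), and its call was kept without CD104low replicate 3 but ended without any 1 of the other 5 libraries (adjusted p = 0.0531 to 0.0959). CTNS, LAPTM4A and LAMP1 had 0.21, 0.18 and 0.14 with adjusted p of 0.0899, 0.121 and 0.17.

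Of 22 tested genes of vesicle biogenesis and secretion, 4 were higher, 4 lower and 14 did not pass (median 0.04). Over all tested genes, 12.1% were higher and 11.3% lower. RAB27B, a small GTPase that docks secretory vesicles, had 782, 998 and 681 in CD104high and 429, 563 and 294 in CD104low, a rise of 1.95-fold (adjusted p = 0.0127, and 0.0559 without CD104high replicate 2). RAB35, an endosomal recycling GTPase, had 6486, 6306 and 6609 against 8976, 8106 and 7801, a fall of 0.36 on the log2 scale (adjusted p = 0.00631). The syndecan gene SDC4 fell by 0.28 (adjusted p = 0.0124), and its call ended without CD104high replicate 2 (0.0513) or CD104low replicate 2 (0.0546). FLOT2, a scaffold of lipid rafts, rose by 1.19-fold (adjusted p = 0.0225), and lost it when any 1 of CD104high replicates 1 and 2 and CD104low replicates 2 and 3 was left out (0.0544 to 0.0877). The other 4 that passed, ARF6 and PLD2 higher and HGS and VPS4A lower, each kept the call without 1 library and lost it without any of the other 5. The library was CD104high replicate 1 for ARF6, CD104high replicate 2 for PLD2, CD104low replicate 1 for HGS and CD104high replicate 3 for VPS4A, and the lost values ran from 0.0534 to 0.17.

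TSPAN3 and TSPAN4 differed from the CD104low libraries by small amounts. TSPAN3 had 9750, 9863 and 10017 normalised reads in CD104high and 8816, 8472 and 9080 in CD104low. Its log2 fold change was 0.17 (SE 0.06, 95% interval 0.03 to 0.30, adjusted p = 0.0713). Its adjusted p was 0.0138 in the authors' deposited table, but 0.0515 with DESeq2 on recovered reads. TSPAN4 had 8312, 8142 and 8291 in CD104high and 7923, 6844 and 6794 in CD104low. Its log2 fold change was 0.20 (SE 0.07, 95% interval 0.04 to 0.37, adjusted p = 0.075), and its adjusted p in the authors' deposited table was 0.0898. Neither gene overlapped between the groups. TSPAN4 passed without CD104low replicate 1 (0.27, adjusted p = 0.0131) and with the replicate block (0.0403), and TSPAN3 passed in neither (0.0796 and 0.0524). TSPAN3 (ENSG00000140391.15) spans chromosome 15, 77041404 to 77083984, on the minus strand. TSPAN4 (ENSG00000214063.11) spans chromosome 11, 842808 to 867116, on the plus strand, beside CD151.

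The ADAM10-binding tetraspanins, known as TspanC8, moved in both directions. Of the 6 genes of that group, 3 rose (TSPAN15, TSPAN5 and TSPAN10), 1 fell (TSPAN33), and TSPAN14 and TSPAN17 did not pass. TSPAN15 had 765, 770 and 698 normalised reads in CD104high and 570, 443 and 354 in CD104low. The groups did not overlap, and the CD104low libraries were spread more widely. The log2 fold change was 0.73 (SE 0.16, 95% interval 0.37 to 1.09, adjusted p = 0.0107), higher in 3 of 3 pairs. Without CD104high replicate 1 it was 0.71 and the call ended narrowly (adjusted p = 0.0513). TSPAN15 (ENSG00000099282.10) spans chromosome 10, 69451473 to 69507669, on the plus strand.

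TSPAN14, the more abundant of the 2 in read count, had 4713, 4899 and 4969 in CD104high and 5178, 5480 and 5974 in CD104low. Each CD104high library was below every CD104low library, by a log2 fold change of −0.19 (SE 0.07, 95% interval −0.35 to −0.03, adjusted p = 0.0867). It passed as lower without CD104low replicate 1 (adjusted p = 0.0418) and with the replicate block (0.0436). In the authors' deposited table its adjusted p was 0.0583, which did not pass. TSPAN14 (ENSG00000108219.15) spans chromosome 10, 80454166 to 80533123, on the plus strand. The log2 ratio of TSPAN15 to TSPAN14 was −2.62, −2.67 and −2.83 in CD104high and −3.18, −3.63 and −4.08 in CD104low, without overlap (difference 0.92, exact permutation p = 0.1, the smallest possible).

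TSPAN5 had 1741, 2178 and 1962 in CD104high and 1341, 1427 and 1256 in CD104low, a rise of 1.46-fold (adjusted p = 0.00441). TSPAN10 had 223, 255 and 242 against 147, 92.6 and 146, a rise of 1.90-fold (adjusted p = 0.0109). TSPAN33 fell by 0.81 on the log2 scale, at 85.0, 68.5 and 80.3 against 142, 110 and 165 (adjusted p = 0.0231). The fall of TSPAN33 lost its call without any 1 of CD104high replicates 1 and 2 and CD104low replicates 1 and 3 (adjusted p = 0.057 to 0.0818). TSPAN17 lay at 3859 to 4403 against 3979 to 4801, with overlap (log2 −0.07, adjusted p = 0.618).

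As a share of the 6 genes' summed reads per kb of exon, TSPAN15 made up 16.9%, 17.4% and 15.5% in CD104high and 12.8%, 11.2% and 8.59% in CD104low. TSPAN14 made up 15.4%, 16.3% and 16.4% against 17.1%, 20.6% and 21.4%. TSPAN17 had the largest share, at 44.1% to 49.4% against 51.3% to 54.5%. These shares depend on the exon length used. For TSPAN14 this is 17888 bases over all annotated exons, far longer than the median of its annotated coding transcripts (1237.5 bases). With the median length of coding transcripts, TSPAN14 had the largest share (45.1% to 46.2% against 50.4% to 56.9%), TSPAN15 had 7.06% to 8.03% against 3.67% to 6.04%, and TSPAN17 overlapped between the groups. The groups stayed apart for TSPAN14 and TSPAN15 with either length (exact permutation p = 0.1, the smallest possible, 0.126 adjusted over 24 shares and sums).

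**Figure D3:**
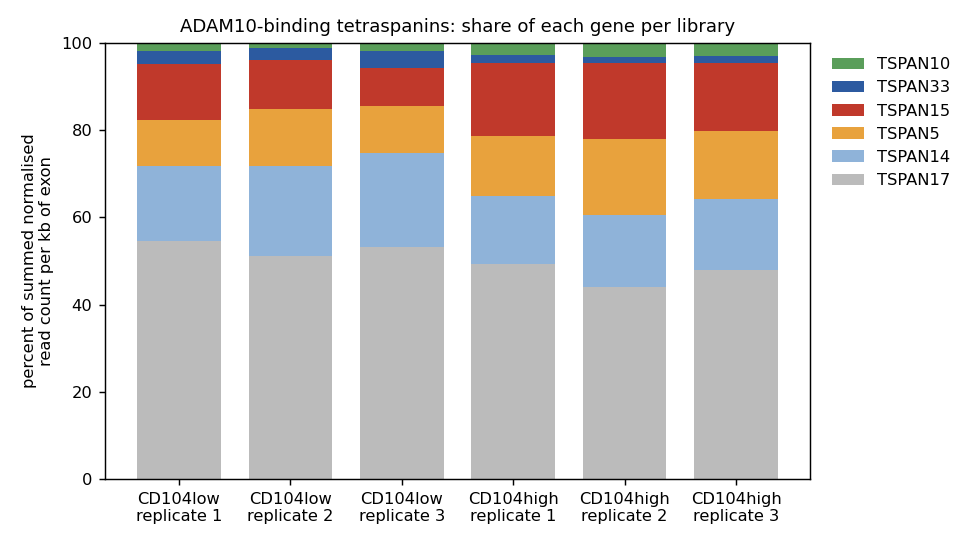
Share of each of the 6 ADAM10-binding tetraspanin genes (colours) in their summed normalised read count per kb of annotated exon (y axis, percent) in each library. The TSPAN15 segment is 15.5% to 17.4% in CD104high and 8.59% to 12.8% in CD104low libraries.

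ADAM10 itself, the membrane protease that these tetraspanins carry, had 24032, 25342 and 23887 in CD104high and 19577, 20138 and 19729 in CD104low, a rise of 1.23-fold (adjusted p = 0.00734). Of the 6 genes of tetraspanin-linked proteases, shed ligands and the CD63 partner TIMP1, 4 were higher, 1 lower and 1 did not pass. MMP14, a membrane-anchored matrix protease, rose by 1.29-fold (adjusted p = 0.00459), and the growth factor gene TGFA by 1.33-fold (adjusted p = 0.00843). HBEGF, whose membrane-bound precursor associates with CD9, fell by 0.28 on the log2 scale, at 4167 ± 327 against 5043 ± 384 (adjusted p = 0.0369). That call ended without any 1 of CD104high replicates 1 and 2 and CD104low replicates 2 and 3 (adjusted p = 0.064 to 0.13). ADAM17, the other main sheddase, had 0.09 (SE 0.10, adjusted p = 0.532). 

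In the rest of the family, 15 of the 16 genes in the table were tested, of which 6 were higher, 2 lower and 7 did not pass (median log2 fold change 0.32). The higher count was 3 without CD104high replicate 2, and the lower count was 0 without CD104high replicate 1 or CD104low replicate 1 and 1 without CD104high replicate 2 or 3 or CD104low replicate 3. Beside TSPAN5, TSPAN10 and TSPAN33, these were TSPAN1, TSPAN2, TSPAN9 and TSPAN13, which rose, and TSPAN12, which fell. TSPAN2 had 599, 573 and 809 in CD104high and 394, 334 and 461 in CD104low, a rise of 1.66-fold (adjusted p = 0.0121). TSPAN9 had 4922, 5108 and 4581 against 4107, 3946 and 3658, a rise of 0.32 on the log2 scale (adjusted p = 0.0129, and 0.0519 and 0.0599 without CD104high replicate 1 or 2). TSPAN12, a co-receptor of norrin signalling, had 206, 212 and 180 against 372, 266 and 317, a fall of 0.66 (adjusted p = 0.0177). Without any 1 of CD104high replicates 1 and 3 and CD104low replicate 1, the call of TSPAN12 ended (adjusted p = 0.0507 to 0.0569).

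TSPAN1 and TSPAN13 were low and less certain. TSPAN1 had 85.0 to 132 in CD104high and 47.3 to 69.9 in CD104low, a rise of 1.95-fold (adjusted p = 0.0229), which lost its call without CD104high replicate 2 or 3 or CD104low replicate 2 (0.0697 to 0.0779). TSPAN13 had 126 to 155 against 85.7 to 93.1, a rise of 1.56-fold (adjusted p = 0.0299) that was kept without CD104low replicate 1 and lost without any 1 of the other 5 libraries (0.0512 to 0.111). CD37, a leukocyte tetraspanin, had 47.3 to 91.9 in CD104high and 27.6 to 42.7 in CD104low and missed the threshold (log2 fold change 0.92, adjusted p = 0.0594). It passed with the replicate block (0.0258) and without CD104high replicate 3 (0.0358). CD14, another leukocyte marker, was also higher in CD104high (548 ± 21.7 against 248 ± 13.2), while PTPRC and CD53 were not in the table, and the part of other cells in the CD37 value was not tested. TSPAN11 lay at 25.8 to 34.0 against 3.9 to 25.7 (adjusted p = 0.0753), and passed with the block (0.0288) and without CD104low replicate 3 (0.00819).

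TSPAN6, TSPAN31, ROM1 and TSPAN19 did not pass, with log2 fold changes of 0.02, 0.22, 0.19 and −0.35 and adjusted p of 0.189 or more. TSPAN32 was too low to be tested, at 3.9 to 21.6 in all libraries. TSPAN7, TSPAN8, TSPAN16, TSPAN18, CD53, UPK1A, UPK1B and PRPH2 were not analysed here.

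**Figure D4:**
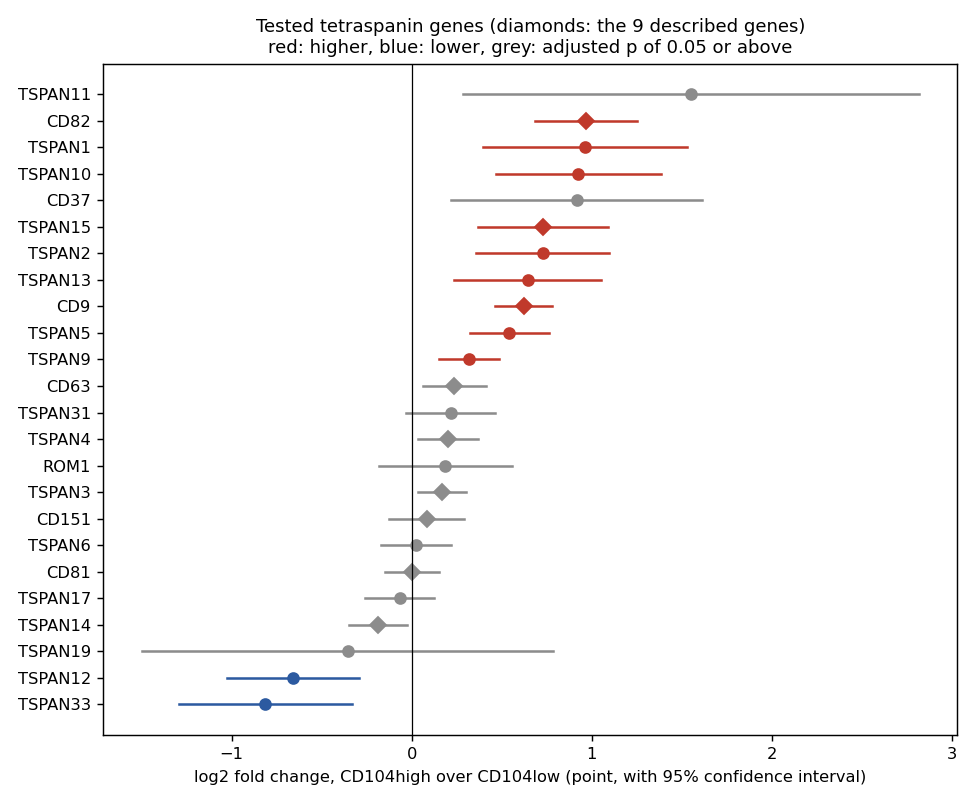
Log2 fold change of CD104high over CD104low (x axis) with its 95% confidence interval for the 24 tested tetraspanin genes, ordered by size, with diamonds for the 9 described genes and circles for the rest, and red, blue and grey for higher, lower and not called. The 9 higher genes run from TSPAN9 at 0.32 to CD82 at 0.97, and the 2 lower ones are TSPAN12 and TSPAN33.

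Levels of different genes were set side by side per kb of annotated exon. CD63 (8386 ± 276 per kb in CD104high and 7133 ± 674 in CD104low) and CD151 (5235 ± 451 and 4945 ± 547) were the most abundant of the 25 family genes. CD9 stood above CD81 in CD104high (1902 ± 142 against 1699 ± 7.48) and below it in CD104low (1232 ± 31.4 against 1698 ± 116). Among the 9, TSPAN4 (1412 ± 15.9 and 1230 ± 109) and TSPAN3 (1161 ± 15.8 and 1033 ± 35.8) followed, and CD9 and TSPAN4 in CD104low lay within each other's spread. Of the 9, CD82 came next, at 798 ± 40.6 and 414 ± 86.7. TSPAN17, outside the 9, lay within the spread of CD82 in CD104high (799 ± 53.4) and above it in CD104low (838 ± 79.1). The lowest 2 of the 9 were TSPAN14 (272 ± 7.42 and 310 ± 22.4) and TSPAN15 (281 ± 15.3 and 172 ± 41.1). In CD104high the TSPAN14 mean lay within the spread of TSPAN15, but the TSPAN15 mean lay just above the spread of TSPAN14. With the median length of coding transcripts in place of exon length, CD63 and CD151 were nearly equal on average (25927 and 25998 per kb). CD81 then stood above CD9, and TSPAN14 rose to the level of CD82 (4204 and 4216), so the order among these depends on the length. These medians count every annotated coding transcript alike, however short. They were 582.5 bases for CD82, 771 for CD151, 788 for CD63 and 1237.5 for TSPAN14. Whether they match the transcripts of these cells was not tested, so these levels are rough.

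The 9 genes made up 87.2% to 88.5% of the family's summed reads per kb in the 6 libraries, with overlapping groups. The sum over the 25 genes was 23991 ± 492 per kb in CD104high and 20693 ± 1682 in CD104low, without overlap (exact permutation p = 0.1, the smallest possible). CD151 supplied 21.8% ± 1.49 of it in CD104high and 23.9% ± 0.709 in CD104low, without overlap, and CD82 3.14% to 3.49% against 1.82% to 2.27%. CD63 supplied 33.6% to 35.7% over the 6 libraries, with overlapping groups.

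Among the 7164 tested genes at or above the median level, those whose pattern over the 6 libraries was most like that of CD151 were NKIRAS2, XXYLT1, PKM, STK16 and CLCN7. Likeness was measured as the root-mean-square difference of the log2 values after each gene's own mean was taken off, and ran from 0.03 to 0.04 for these 5, against a median of 0.19 for all genes compared. The 5 were chosen for this likeness, so that features they share with CD151 over these libraries are fixed by the choice. Their log2 fold changes between the groups were 0.06 to 0.09.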

How the data were processed

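Total RNA of 6 libraries was analysed, 3 per group. The build GRCh38.p13 (hg38) and the tools DESeq2 1.30.1, featureCounts 1.5.0, STAR 2.4.0 and FastQC are named, without roles, in the submitters' processing notes. The authors deposited a normalised signal per gene and library, from its values gene read counts divided by a size factor of 0.971 to 1.03. They also deposited log2 fold changes with standard errors, a test statistic (used as a score), p-values and adjusted p-values. No gene of the table is at 0 in any library. A count test is not the main test because the values are normalised. Instead, values were taken as log2(value + 1) and tested with limma 3.58.1 in R 4.3.3, letting the variance follow the mean. The added 1 lessens the change of low values, but low genes differed from DESeq2 in either direction. The log2 fold change of TSPAN11 was 1.55 on this scale and 1.29 with DESeq2, and that of CD37 0.92 and 0.97. The 14343 genes that reached 10 in 3 or more libraries entered, p-values were two-sided and adjusted by Benjamini-Hochberg over all of them, and the procedure was tested on simulated data. Fold changes are 2 to the power of the log2 fold change.

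Recovered whole reads (values within 0.1 of a whole number) served for edgeR 4.0.16, DESeq2 1.42.0 and limma-voom as alternatives; one column, CD104high replicate 2, has a read size too near 1 to be certain. The fit was also repeated with replicate number as a blocking term. Across genes, deviations from group means correlated at 0.17, 0.32 and 0.48 between same-numbered libraries of the groups. Between libraries with unlike numbers the correlations ran from −0.373 to 0.129. The numbers come from the labels, which do not say that a number marks a shared culture or sort. Spans and exon lengths are from GENCODE 29. The members and gene lists were chosen with earlier results of these data known. The genes named were all members, other family genes and partners of the integrin, EWI, protease and membrane lists, the 4 with the smallest p of the vesicle and endosome lists, and the 5 most like CD151. Other genes that passed in the vesicle list, and CD14, LUM, KRT19 and ERBB2, were named after their values were seen.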

Additional observations from a re-analysis of the deposited data

How the results depend on the processing

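CD9 and CD82 kept their direction and call under all 16 alternatives, and TSPAN15 under 15. With the replicate block 5 of the 9 genes were higher and 1 lower, since CD63 (0.24, adjusted p = 0.0262), TSPAN4 (0.20, 0.0403) and TSPAN14 (−0.19, 0.0436) passed, while the calls over all genes went from 1730 to 2498 higher and from 1625 to 2208 lower. With DESeq2, CD63 passed (0.23), with 14.2% of all genes higher and 13.5% lower. The block ended no call among the genes named, and made CD37, CD46, TSPAN11, ERBB2 and LUM pass too. With 1 library left out, the count of the 9 ran from 2 to 5 higher and from 0 to 1 lower, the fold changes of CD63, TSPAN4, TSPAN14 and TSPAN15 from 0.18 to 0.31, 0.16 to 0.27, −0.24 to −0.13 and 0.56 to 0.91, and the other family genes from 3 to 6 higher and from 0 to 2 lower. The 57 partner and trafficking genes, 15 higher and 5 lower, ran from 8 to 13 and from 1 to 4, and all genes from 1017 to 1766 higher and from 799 to 1547 lower. Without both libraries numbered 3, 1 other family gene and 2 partner genes were lower. Without the mean-variance trend 9 partner genes were higher and 2 lower, and 936 of all genes lower. The cause was not tested. The sign of CD81 changed between settings, at −0.03 to 0.06 with 1 library left out, without a call. Pseudocounts of 0.1 and 5, no filter, edgeR with either scaling and limma-voom moved no call among the 9. Groups of 3 libraries limit the precision.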
